A study of Triticum aestivum with 18 samples.

Results

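Genes of auxin signalling and auxin transport were followed in wheat through 3 gene families that the study's gene table names by description: 88 genes described as Auxin-responsive protein, 67 as Auxin response factor and 37 as Auxin efflux carrier component. The members were all reference wheat genes whose description held one of these phrases, 192 of the 134610 genes in the table, and all 192 were annotated as protein coding. Jimai 22, a salt-tolerant bread wheat variety, was grown in nutrient solution, and RNA-seq libraries were made from roots and the third leaves 4 d after treatment. Each library came from a pool of 10 roots or 10 leaves, and 3 libraries per group were used here. TMG roots and TMY leaves received 5 mM 3-methyladenine (3-MA) 5 h before 150 mM NaCl, TG roots and TY leaves received 150 mM NaCl alone, and CG roots and CY leaves were the untreated controls. 3-MA is used as an inhibitor of autophagy through phosphatidylinositol 3-kinase, and a group with 3-MA but no NaCl was not analysed here, so every 3-MA comparison was made under NaCl. The sources differ on whether a treatment had 3 or 4 replicates, and the paper's methods give 3 for RNA-seq and 4 for the metabolite assay.

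Auxin response factors bind auxin response elements in promoters and activate or repress the genes behind them. Auxin-responsive proteins, known as Aux/IAA proteins, bind these factors and repress them, and auxin brings about their degradation through the TIR1/AFB receptors, while many Aux/IAA genes are themselves switched on by auxin. Auxin efflux carriers, known as PIN proteins from work in Arabidopsis thaliana, carry auxin out of cells and, by their position in the membrane, give its flow a direction. Bread wheat holds A, B and D copies of most genes on each chromosome group, and the table pairs no copies with each other, so copies are named below only by chromosome and by their order along it.

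The libraries held 27156078 to 33150906 counts. Leaf marker genes separated the tissues, with 98 chlorophyll a-b binding protein genes summing to 18.1 to 24.5 CPM in TMG, 60.8 to 101 CPM in TG and 258 to 420 CPM in CG roots, against 8091 to 13444 CPM in TMY, 19895 to 24004 CPM in TY and 47609 to 94119 CPM in CY leaves. The 1 gene described as a Casparian strip membrane protein, fixed as the root marker, was at 0.183 to 0.714 CPM in roots and 0 to 0.639 CPM in leaves, so it did not separate them. CPM are counts relative to library size, scaled here with edgeR's TMM factors, which were 0.607 to 0.746 in CY leaves and 0.865 to 1.27 in the other groups. The leaf marker sums moved with both treatments in both tissues, and their part in the results below was not tested. In RNA from whole organs, fewer cells of a type and less RNA per cell cannot be told apart. A gene was called when edgeR's quasi-likelihood test gave an adjusted p of 0.05 or less over all genes tested. Fold changes are log2 values with a standard error (SE) derived from that test, their size divided by the square root of its F value. The SE is thus no measure of spread apart from the test. Genes named for their fold change were picked among called members without overlap between the groups. The lack of overlap in them follows from this choice.

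The families differed in how many members were expressed. Counted as a mean of at least 1 FPKM over the 9 libraries of a tissue, 59 of the 88 Aux/IAA genes were expressed in roots and 50 in leaves, with 47 in both and 26 in neither. Of the 67 response factors, 46 were expressed in roots and 41 in leaves, with 36 in both. The efflux carriers were the most restricted, with 10 of 37 in roots, 6 in leaves, 3 in both and 24 in neither. The 5 most abundant members held 60.7% of the efflux carrier FPKM in roots and 90.1% in leaves, whereas the corresponding shares were 26.6% and 39.2% for the Aux/IAA genes and 34.8% and 51.3% for the response factors. No library held a count of 6 Aux/IAA genes, 1 response factor and 5 efflux carriers. FPKM, the unit the levels of different genes are compared in, divides counts by gene length, which ranged from 402 to 3501 bases in the Aux/IAA genes, 1125 to 4498 bases in the response factors and 1104 to 2996 bases in the efflux carriers.

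**Figure D1:**
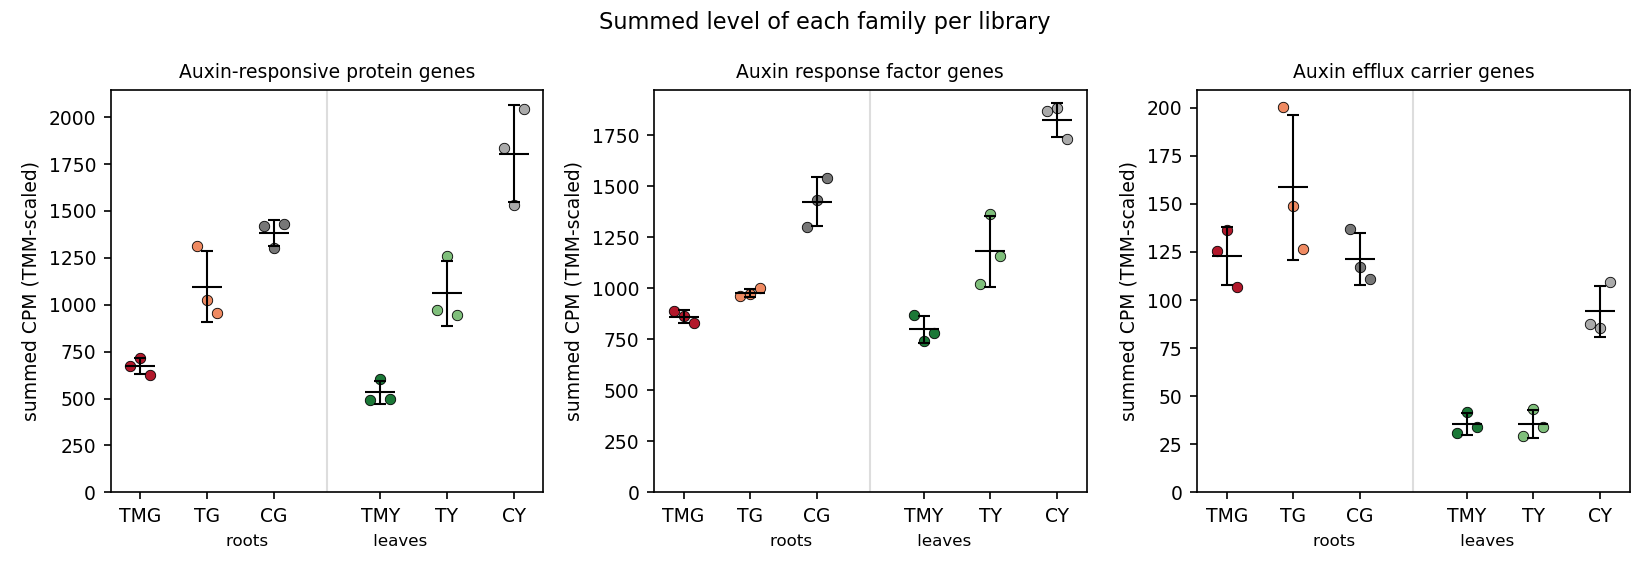
Summed TMM-scaled CPM of the 88 Auxin-responsive protein, 67 Auxin response factor and 37 Auxin efflux carrier genes (y axis, each panel from 0) in TMG, TG and CG roots and TMY, TY and CY leaves. Points are libraries and bars the mean and SD of 3; the Aux/IAA sum was lowest in the 3-MA + NaCl libraries of both tissues, at 628 to 715 CPM in TMG roots and 493 to 605 CPM in TMY leaves.

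Summed over the family, Aux/IAA RNA averaged 672 ± 43.5 CPM in TMG, 1097 ± 190 CPM in TG and 1384 ± 70.3 CPM in CG roots, and 533 ± 62.7 CPM in TMY, 1061 ± 174 CPM in TY and 1805 ± 257 CPM in CY leaves (SD, n = 3 each). No library of one treatment overlapped another treatment of the same tissue except that TG replicate 1, at 1312 CPM, lay above the lowest CG library, at 1303 CPM. Response factor RNA summed to 860 ± 30.8 CPM in TMG, 977 ± 20.7 CPM in TG and 1423 ± 120 CPM in CG roots, and to 798 ± 65.4 CPM in TMY, 1180 ± 174 CPM in TY and 1826 ± 83.8 CPM in CY leaves. The efflux carriers behaved otherwise, with 123 ± 15.1 CPM in TMG, 159 ± 37.7 CPM in TG and 122 ± 13.5 CPM in CG roots, whose ranges overlapped, and with 35.5 ± 5.59 CPM in TMY, 35.6 ± 7.24 CPM in TY and 94.1 ± 13.4 CPM in CY leaves. These sums weight each member by its abundance and carry no test.

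In roots under NaCl, Aux/IAA genes were called in both directions. Of 70 tested members, 14 were higher and 23 lower in TG than in CG, where 18.5% of all genes tested were called higher and 17.1% lower, and the family median log2 fold change was 0.03, equal to that of all genes. Only members that passed the filter on low counts were tested, which a gene can do through the group where it is high, so medians and counts describe the tested members alone. The 23 lower genes included several of the most abundant root members. TraesCS5B02G381800 (chr5B:559778240-559779074, minus strand), the Aux/IAA gene with the highest root FPKM (65.5), stood at 45.9, 30.0 and 25.5 CPM in TG roots, against 74.9, 70.3 and 75.3 CPM in CG roots. The groups did not overlap, and edgeR gave a log2 fold change of -1.09 ± 0.22 SE, edgeR adjusted p = 0.00573. TraesCS5D02G449400 fell further, to 0.906, 0.520 and 0.473 CPM in TG roots, against 6.10, 5.65 and 5.76 CPM in CG roots (-3.16 ± 0.27 SE, edgeR adjusted p = 0.000162). TraesCS7D02G127800, which had no count in any leaf library, fell to 0.129, 0.164 and 0.0835 CPM in TG roots, against 0.762, 1.89 and 2.32 CPM in CG roots (-3.65 ± 0.55 SE, edgeR adjusted p = 0.00166).

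Of the 14 Aux/IAA genes that rose in TG roots, those with the largest fold changes were scarce. TraesCS4A02G204900 had 1.81, 0.492 and 1.25 CPM in TG roots, against 0.0610, 0 and 0.15 CPM in CG roots, and no leaf counts (4.06 ± 0.82 SE, edgeR adjusted p = 0.00593). TraesCS1D02G123500 had 1.73, 1.34 and 1.06 CPM in TG roots, against 0.335, 0.214 and 0 CPM in CG roots (2.86 ± 0.69 SE, edgeR adjusted p = 0.0129). More abundant were 3 genes of chromosome group 3, added here after their values were seen. TraesCS3B02G127400 had 49.5, 36.7 and 32.7 CPM in TG roots, against 14.6, 17.4 and 12.7 CPM in CG roots (1.44 ± 0.20 SE, edgeR adjusted p = 0.00108), and TraesCS3A02G108400 and TraesCS3D02G110200 rose by log2 fold changes of 1.75 and 1.06. In leaves the same 3 genes were not called between TY and CY, with log2 fold changes from -0.17 to 0.16.

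When 3-MA was added under NaCl, the Aux/IAA genes called in roots were nearly all lower. Of 71 tested members, 34 were lower and 3 higher in TMG than in TG, beside 12% of all genes tested lower and 8.16% higher, and the family median log2 fold change was -0.63 against -0.01 over all genes. Counting only genes with at least 1 CPM in 3 libraries, which removes scarce genes from both sides, 36 of 61 Aux/IAA genes (59.0%) were called, 2 higher and 34 lower, beside 22.3% of all genes, 9.21% higher and 13.1% lower. The count fell to 20 called genes without TMG replicate 1 and to 24 without TMG replicate 3, and it was 24 with all 6 groups in one fit. Calls over all genes fell as well, from 14879 of 73651 tested to 7430 of 75855, 8442 of 75314 and 10267 of 82125 in those fits. On chromosome group 5, singled out after the values were seen, 15 of 16 tested members were lower, against 6 of 14 on group 1, 6 of 15 on group 3, 2 of 9 on group 6 and 5 of 13 on group 7. All 3 higher genes were on group 7.

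Group 5 held 2 sets of genes with different courses, both put together after their values were seen. In the set that lies first along the chromosomes, 3 neighbouring pairs on 5A, 5B and 5D, none of the 6 genes was called between TG and CG (log2 fold changes -0.09 to 0.20), and 5 of 6 were lower in TMG than in TG. TraesCS5B02G058500 (chr5B:64264697-64267855, minus strand), second of all Aux/IAA genes in root FPKM (52.5), had 27.8, 29.1 and 26.2 CPM in TMG roots, 57.4, 41.2 and 38.8 CPM in TG roots and 49.9, 43.8 and 43.7 CPM in CG roots. TMG lay below both other groups without overlap, while TG and CG overlapped, and the TMG vs TG test gave -0.73 ± 0.15 SE, edgeR adjusted p = 0.0143. In the second set of 9 genes, which includes TraesCS5B02G381800, 8 were lower in TG than in CG and 9 of 9 lower in TMG than in TG. TraesCS5B02G381800 had 17.6, 20.4 and 13.4 CPM in TMG roots, beside the TG values given above (-0.98 ± 0.23 SE, edgeR adjusted p = 0.0227), and its neighbour TraesCS5B02G381900 had 8.20, 9.48 and 6.4 CPM in TMG roots, 28.5, 17.7 and 17.8 CPM in TG roots and 45.6, 43.5 and 44.3 CPM in CG roots. The TG libraries serve in both of these comparisons, so the fold changes of the first and second are not independent. TraesCS5D02G449400, the remaining called gene of the chromosome group, reached 0.0545, 0.167 and 0.212 CPM in TMG roots (-2.10 ± 0.54 SE, edgeR adjusted p = 0.0297).

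Outside group 5 the largest root fall with 3-MA belonged to TraesCS7A02G371500 (chr7A:545472957-545474340, minus strand). It had 1.42, 1.60 and 1.03 CPM in TMG roots, against 6.11, 5.41 and 5.90 CPM in TG roots (-2.11 ± 0.19 SE, edgeR adjusted p = 0.000447), and 15.6, 16.5 and 25.2 CPM in CG roots. TraesCS7D02G351400 had 1.14, 1.31 and 0.793 CPM in TMG roots, against 6.63, 3.53 and 1.98 CPM in TG roots (-1.90 ± 0.43 SE, edgeR adjusted p = 0.0187), a call lost without TMG replicate 1, 2 or 3 (log2 fold change -2.05 to -1.71, adjusted p 0.0607 to 0.0733 by edgeR). The 3 chromosome group 3 genes that rose with NaCl were lower in TMG than in TG as well, by -1.14 to -0.67. Against this, TraesCS7D02G128100 (chr7D:80416852-80417594, minus strand) had 2.15, 2.31 and 1.85 CPM in TMG roots, 0.0518, 0.301 and 0.251 CPM in TG roots and no count in CG roots or any leaf library (3.38 ± 0.47 SE, edgeR adjusted p = 0.00245 for TMG vs TG), so TG was at least 5.77-fold higher than CG, taking 3 counts over the CG group as the floor. Its neighbour TraesCS7D02G128200, also without leaf counts, had 2.62, 2.55 and 2.25 CPM in TMG roots, 0.673, 0.410 and 0.473 CPM in TG roots and 0.305, 0.214 and 0.15 CPM in CG roots (2.24 ± 0.26 SE, edgeR adjusted p = 0.0012). TraesCS7D02G127800, the gene of the same stretch of 7D that fell with NaCl, had 0.0545, 0.167 and 0.0264 CPM in TMG roots. Genes this close along a chromosome may be near-identical copies, and how reads matching several copies were counted is not given in the sources used here, so their separate values are uncertain.

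**Figure D2:**
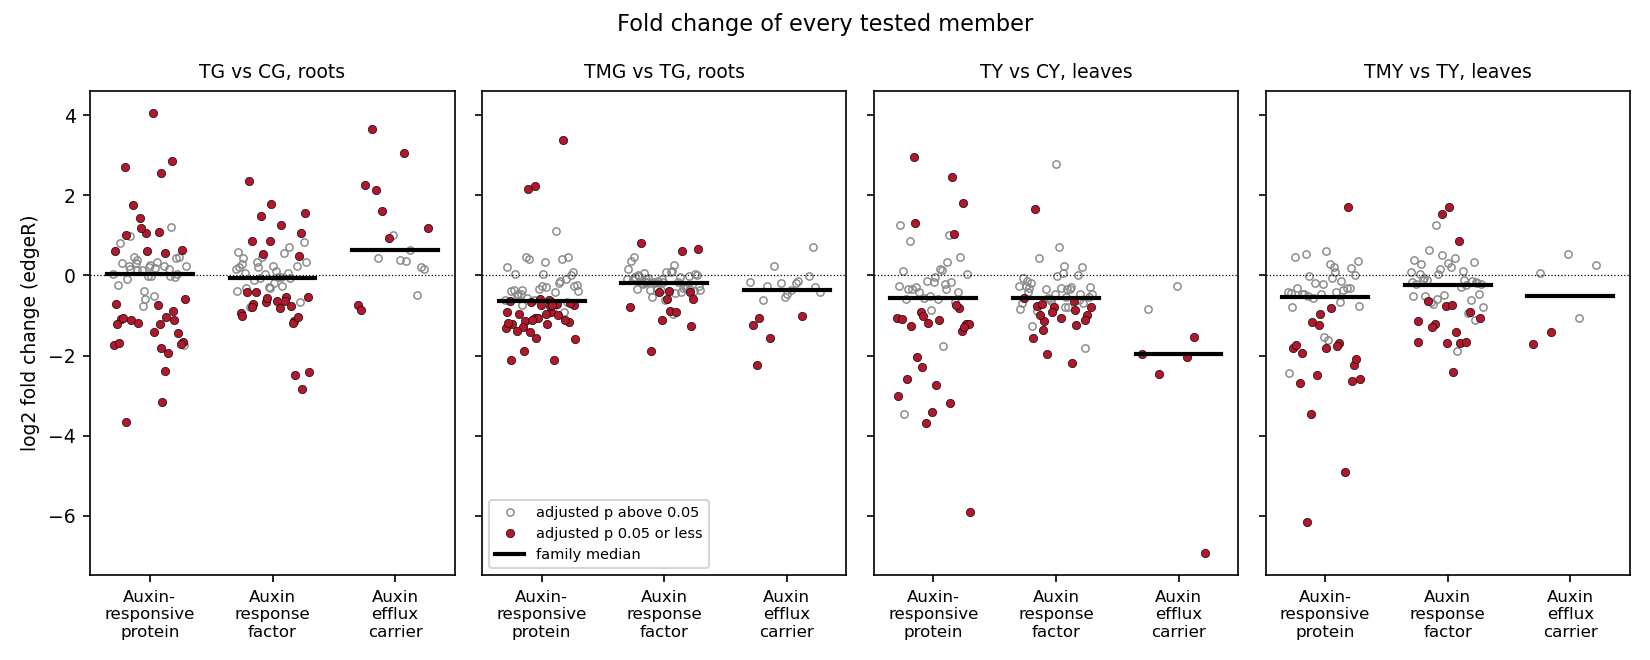
edgeR log2 fold change (y axis) of every tested member of each family (x axis) in TG vs CG and TMG vs TG roots and TY vs CY and TMY vs TY leaves. Filled points passed an adjusted p of 0.05 and bars mark the family median; 34 of 37 called Aux/IAA genes lay below 0 in TMG vs TG roots and 19 of 20 in TMY vs TY leaves.

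In leaves under NaCl, 22 of 56 tested Aux/IAA genes were lower and 5 higher in TY than in CY, beside 13.2% of all genes lower and 10.1% higher, with a family median log2 fold change of -0.57 against 0.02 over all genes. Scaled by library size alone, a setting under which the median of all genes rises to 0.37, the split was 19 lower and 8 higher. That scaling called 4750 of 62945 genes lower and 14880 higher. Of the 23 genes called lower with NaCl in roots and the 22 in leaves, 14 were in both lists, and 6 of the 23 were not tested in leaves. The sharing over all genes was not counted, so this number has no background to be read against. In the second group 5 set 6 of 7 tested genes fell. TraesCS5B02G381800 had 0.899, 1.77 and 1.03 CPM in TY leaves, against 14.8, 13.9 and 20.7 CPM in CY leaves (-3.67 ± 0.29 SE, edgeR adjusted p = 0.000658), so that its leaf fall exceeded its root fall, with a difference between tissues (roots minus leaves) of 2.56 ± 0.38 SE, edgeR adjusted p = 0.00138. TraesCS7D02G351400 was at 0.0719, 0.0362 and 0 CPM in TY leaves, 3 counts in all, against 2.63, 1.61 and 3.47 CPM in CY leaves. Its CY level was 70.7 times that in TY by the summed counts, with a counting interval of 23.7 to 347 (95%, exact) that leaves out the spread between libraries, and edgeR's adjusted p was 0.00158.

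The leaf-abundant Aux/IAA genes also fell. TraesCS3A02G276500 (chr3A:506441454-506444644, minus strand), the family member with the highest leaf FPKM (93.8), had 100.2, 183 and 76.3 CPM in TY leaves, against 345, 284 and 355 CPM in CY leaves (-1.39 ± 0.31 SE, edgeR adjusted p = 0.0138). TraesCS3D02G276600, the next in leaf FPKM (67.7), had 103, 150.1 and 74.5 CPM in TY leaves, against 262, 207 and 257 CPM in CY leaves (-1.09 ± 0.26 SE, edgeR adjusted p = 0.0179). Neither gene's groups overlapped, and TraesCS3B02G310500, added as the B copy at a similar place on the chromosome, changed by -1.22. In CG roots the 3 genes stood at 13.1 to 58.2 CPM, well under the 151 to 355 CPM of CY leaves, and they fell in TG roots by log2 fold changes of -1.94 to -1.11. The largest leaf rises were in TraesCS1A02G343300, with 5.54, 5.94 and 5.61 CPM in TY leaves, against 0.263, 1.80 and 0.155 CPM in CY leaves (2.96 ± 0.67 SE, edgeR adjusted p = 0.0153). TraesCS7D02G318900 had 0.863, 1.56 and 1.14 CPM in TY leaves, against 0.263, 0.0945 and 0.311 CPM in CY leaves (2.46 ± 0.55 SE, edgeR adjusted p = 0.0148), a call lost without TY replicate 2 (log2 fold change 2.21, adjusted p 0.0546 by edgeR).

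With 3-MA in leaves, 19 of 52 tested Aux/IAA genes were lower and 1 higher in TMY than in TY, beside 9.94% of all genes lower and 8.44% higher, and the family median log2 fold change was -0.54 against 0.00 over all genes. TMY replicate 2 differed most from the other TMY libraries (chi-square of the counts per degree of freedom 39.1 and 49.7, against 13.7 between the others). Without it 27 Aux/IAA genes and 17369 of all genes were called, against 11923 of all genes with it. The first group 5 set gave the largest falls, and 6 of its 6 genes were called lower. TraesCS5D02G069200 (chr5D:66667985-66669320, minus strand) had 0.0288, 0.320 and 0.0357 CPM in TMY leaves, 9.60, 11 and 8.60 CPM in TY leaves and 3.79, 1.80 and 6.89 CPM in CY leaves. It was thus higher in TY than in CY without overlap (1.30 ± 0.39 SE, edgeR adjusted p = 0.0432) and lowest in TMY (-6.15 ± 0.55 SE, edgeR adjusted p = 0.000984). TraesCS5B02G058800 (chr5B:64418744-64420036, plus strand) had 0.375, 0.192 and 0.143 CPM in TMY leaves, 7.12, 9.12 and 6.68 CPM in TY leaves and 3.89, 3.31 and 4.46 CPM in CY leaves, with log2 fold changes of 1.04 for NaCl and -4.90 ± 0.35 SE, edgeR adjusted p = 0.000695 for 3-MA. In roots the same genes had 10.2, 14.8 and 10.3 CPM and 11.8, 14.3 and 11.3 CPM in TMG, against 31.9, 25.6 and 24.9 CPM and 34.2, 27.6 and 24.4 CPM in TG. The root falls were smaller than the leaf falls, with differences between tissues (roots minus leaves) of 4.85 ± 0.54 SE, edgeR adjusted p = 0.000417 for TraesCS5D02G069200 and 3.61 ± 0.36 SE, edgeR adjusted p = 0.00023 for TraesCS5B02G058800.

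The 3 leaf-abundant group 3 genes fell too, TraesCS3A02G276500 to 28.9, 16.1 and 28.1 CPM in TMY leaves, beside the TY values above (-2.24 ± 0.37 SE, edgeR adjusted p = 0.00671), and the 3 genes together by log2 fold changes of -2.59 to -1.82. In roots they were not called between TMG and TG, with log2 fold changes of -0.19 to 0.08, and the difference between tissues passed the test for each of the 3 (1.82 to 2.41, roots minus leaves). Of the 34 Aux/IAA genes called lower with 3-MA in roots and the 19 in leaves, 13 were in both lists, and 8 of the 34 were not tested in leaves. The sharing over all genes was not counted. The 1 gene that rose, TraesCS7A02G322000, had 4.18, 5.62 and 4.14 CPM in TMY leaves, against 1.37, 1.01 and 2.06 CPM in TY leaves (1.70 ± 0.30 SE, edgeR adjusted p = 0.00774).

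**Figure D3:**
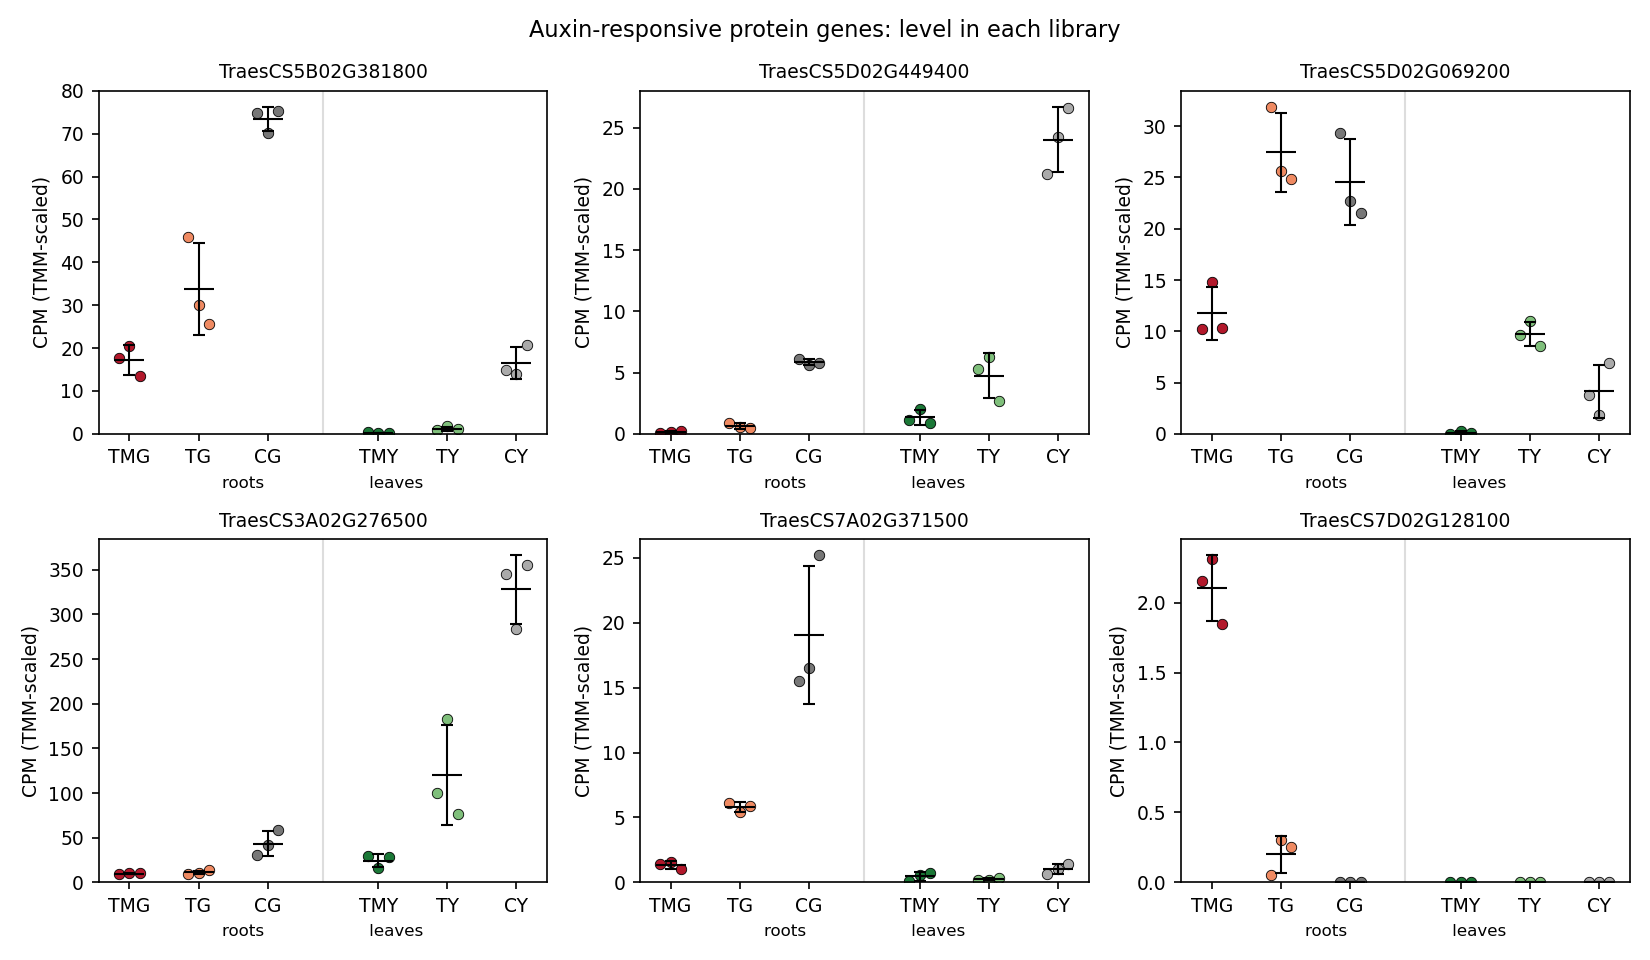
TMM-scaled CPM (y axis, each panel from 0) of 6 Auxin-responsive protein genes in TMG, TG and CG roots and TMY, TY and CY leaves; points are libraries and bars the mean and SD of 3. TraesCS5D02G069200 was at 0.0288 to 0.320 CPM in TMY leaves and 8.60 to 11 CPM in TY leaves, and TraesCS7D02G128100 had counts in TMG and TG roots and none in CG roots or in leaves.

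Between the untreated tissues, 27 of 63 tested Aux/IAA genes were higher and 20 lower in CG roots than in CY leaves, where 36.1% of all genes tested were higher and 29.3% lower. Scaled by library size alone, the split was 34 higher and 14 lower, beside 37274 of 71882 genes higher and 14657 lower. The second group 5 set was higher in roots in 9 of 9 genes, and the group 3 leaf set lower in 3 of 3. The NaCl effect differed between tissues in 17 of 70 tested Aux/IAA genes, 14 of them with the higher value in roots, beside 11.1% of all genes, 6.17% higher in roots and 4.91% lower. The smallest adjusted p belonged to TraesCS6B02G432800, which had 7.69, 6.97 and 7.15 CPM in TG roots, against 7.10, 5.58 and 7.18 CPM in CG roots, and 6.4, 6.34 and 6.61 CPM in TY leaves, against 16.5, 15.2 and 17.1 CPM in CY leaves. Its root groups overlapped and its leaf groups did not, with a difference of 1.41 ± 0.20 SE, edgeR adjusted p = 0.00115. The 3-MA effect differed in 15 of 72 genes, 9 higher in roots and 6 lower, beside 10.5% of all genes, 3.4% higher and 7.12% lower. Of the called genes, 15 of the 17 for NaCl and 12 of the 15 for 3-MA were tested in both tissues, and the rest in roots alone.

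Among the auxin response factors, 63 carried the transcription factor class Auxin_resp and 4 the class B3, the name of their DNA-binding domain, in the table. The most abundant in roots were TraesCS2D02G307600 (chr2D:394536026-394541495, minus strand), at 27.6 FPKM, and TraesCS2A02G309300, at 24.7 FPKM. In leaves TraesCS3D02G434700 (chr3D:547298032-547302973, plus strand) led with 51.8 FPKM, followed by TraesCS2B02G326400 with 43.3 FPKM. The level of TraesCS2D02G307600 ranged over the 18 libraries from 61.3 CPM in a TMY library to 144 CPM in a CY library. TraesCS3D02G434700 had 126, 94.6 and 116 CPM in TMY leaves, 127, 158 and 142 CPM in TY leaves and 234, 256 and 242 CPM in CY leaves, with TY below CY without overlap (-0.72 ± 0.16 SE, edgeR adjusted p = 0.0135). The TMY libraries also lay below those of TY, but the test did not call the difference (-0.28).

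In roots under NaCl, 20 of 61 tested response factors were lower and 10 higher in TG than in CG, beside 17.1% of all genes lower and 18.5% higher, with a median log2 fold change of -0.07. Scaled by library size alone, which moves the median of all genes to 0.26, 12 were lower and 16 higher. That scaling called 8640 of 73066 genes lower and 20020 higher. Without TG replicate 2 the called genes fell to 19 in number, while calls over all genes fell from 26032 to 17124. The falls that stood out were 3 genes at corresponding places on 7A, 7B and 7D. TraesCS7B02G065800 (chr7B:71361132-71368111, plus strand) had 9.24, 6.15 and 8.21 CPM in TG roots, against 35.2, 59.0 and 77.9 CPM in CG roots (-2.84 ± 0.30 SE, edgeR adjusted p = 0.000374). TraesCS7A02G160800 (chr7A:116871592-116878338, plus strand) had 7.92, 6.15 and 6.93 CPM in TG roots, against 27.7, 40.1 and 53.3 CPM in CG roots (-2.50 ± 0.24 SE, edgeR adjusted p = 0.00027), and TraesCS7D02G161900 (chr7D:112045748-112052551, plus strand) had 8.18, 7.46 and 8.55 CPM in TG roots, against 33.4, 47.1 and 51.5 CPM in CG roots (-2.42 ± 0.19 SE, edgeR adjusted p = 0.000106). No TG library of any of the 3 genes reached its lowest CG library. They stayed low in TMG roots, at 5.41 to 7.25 CPM, and none was called between TMG and TG.

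The same 3 genes answered less evenly in leaves. TraesCS7D02G161900 had 5.58, 9.48 and 5.26 CPM in TY leaves, against 6.68, 7.18 and 7.67 CPM in CY leaves (-0.02 ± 0.25 SE, edgeR adjusted p = 0.957, not called), and TraesCS7B02G065800 was not called either (-0.63), whereas TraesCS7A02G160800 fell (-1.14 ± 0.23 SE, edgeR adjusted p = 0.00981). The difference in the NaCl effect between tissues passed the test for all 3, at -2.42 ± 0.32 SE, edgeR adjusted p = 0.000789 for TraesCS7D02G161900, -2.23 for TraesCS7B02G065800 and -1.38 for TraesCS7A02G160800. Among the 10 response factors that rose in TG roots, TraesCS2A02G491000 had 1.19, 1.37 and 1.20 CPM in TG roots, against 0.335, 0.286 and 0.112 CPM in CG roots (2.34 ± 0.43 SE, edgeR adjusted p = 0.00382). TraesCS6A02G222300 had 2.10, 1.70 and 1.36 CPM in TG roots, against 0.366, 0.715 and 0.449 CPM in CG roots (1.78 ± 0.36 SE, edgeR adjusted p = 0.00614), with levels in TY leaves of 2.91, 1.81 and 1.78 CPM, against 4.79, 2.17 and 5.29 CPM in CY leaves.

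Fewer response factors passed the test with 3-MA in roots. Of 61 tested, 11 were lower and 3 higher in TMG than in TG, beside 12% of all genes lower and 8.16% higher, so the share of 14 in 61 was near the 20.2% called over all genes. The count was 5 without TG replicate 2, 5 without TMG replicate 1, 6 without TMG replicate 2, 7 without TMG replicate 3 and 6 with all 6 groups in one fit. Calls over all genes fell from 14879 to 9841, 7430, 7839, 8442 and 10267 in the same fits. TraesCS1D02G337400 had 0.409, 0.453 and 0.397 CPM in TMG roots, against 1.66, 1.34 and 1.67 CPM in TG roots (-1.88 ± 0.27 SE, edgeR adjusted p = 0.00287). TraesCS6A02G138600 had 5.45, 5.19 and 5.42 CPM in TMG roots, against 15.9, 13.6 and 9.35 CPM in TG roots (-1.27 ± 0.19 SE, edgeR adjusted p = 0.00321). Both falls kept the call in every alternative tried. The rises were small and less stable. TraesCS6D02G102300 had 8.17, 7.31 and 5.76 CPM in TMG roots, against 4.37, 4.68 and 4.45 CPM in TG roots (0.65 ± 0.15 SE, edgeR adjusted p = 0.0222), a call lost without TG replicate 2 or TMG replicate 1 or 2 (0.54 to 0.68, adjusted p 0.062 to 0.093 by edgeR) and with all 6 groups in one fit (0.65, adjusted p 0.12). TraesCS2A02G491000 had 2.26, 2.50 and 1.80 CPM in TMG roots, beside the TG values above (0.80 ± 0.22 SE, edgeR adjusted p = 0.0365), and lost the call without TG replicate 1, 2 or 3 or TMG replicate 1 or 2 (0.71 to 0.87, adjusted p 0.0592 to 0.131 by edgeR) and with all 6 groups in one fit (0.80, adjusted p 0.399).

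In leaves under NaCl, 18 of 57 tested response factors were lower and 1 higher in TY than in CY, beside 13.2% of all genes lower and 10.1% higher, with a median log2 fold change of -0.57. Scaled by library size alone, 7 were lower and 2 higher, beside 4750 of 62945 genes lower and 14880 higher. The count of called genes was 11 without TY replicate 1 and 12 without TY replicate 3. Calls over all genes fell there from 14655 to 8403 and 8045. Of the 20 response factors called lower with NaCl in roots and the 18 in leaves, 11 were in both lists, and the sharing over all genes was not counted. TraesCS7D02G436800 (chr7D:556120190-556124226, plus strand) had 16.1, 16.0 and 14.1 CPM in TY leaves, against 66.6, 54.8 and 67.6 CPM in CY leaves (-1.97 ± 0.15 SE, edgeR adjusted p = 0.000658), and TraesCS7A02G446900 had 6.98, 8.40 and 9.84 CPM in TY leaves, against 25.4, 21.8 and 30.4 CPM in CY leaves (-1.56 ± 0.19 SE, edgeR adjusted p = 0.00172). Both also fell in TG roots, with log2 fold changes of -1.05 and -0.64. The 1 gene that rose, TraesCS3B02G273400, had 2.45, 1.95 and 3.13 CPM in TY leaves, against 0.842, 1.18 and 0.415 CPM in CY leaves (1.67 ± 0.42 SE, edgeR adjusted p = 0.0236), a call lost without CY replicate 1 or TY replicate 1 or 3 (1.48 to 1.69, adjusted p 0.0646 to 0.0878 by edgeR).

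With 3-MA in leaves, 14 of 55 tested response factors were lower and 3 higher in TMY than in TY, beside 9.94% of all genes lower and 8.44% higher, with a median log2 fold change of -0.24. The count of 17 was 9 without TY replicate 1, 7 without TY replicate 2, 10 without TY replicate 3, 8 without TMY replicate 1, 9 without TMY replicate 3 and 27 with all 6 groups in one fit. Calls over all genes moved from 11923 to 5977, 6918, 7037, 5174, 6647 and 17488 in the same fits. TraesCS7A02G461700 (chr7A:657715805-657722562, minus strand), the leaf-richest of 3 genes at corresponding places of group 7, had 23.6, 17.7 and 16.1 CPM in TMY leaves, 62.2, 164 and 92.2 CPM in TY leaves and 225, 152 and 131 CPM in CY leaves. TMY lay below the other groups, while TY and CY overlapped (-2.42 ± 0.36 SE, edgeR adjusted p = 0.00437 for 3-MA). The added copies TraesCS7B02G363100 and TraesCS7D02G449900 changed by -1.69 and -1.67. In roots none of the 3 was called between TMG and TG, with log2 fold changes of -0.20 to -0.08, and the difference between tissues passed for each (1.41 to 2.26, roots minus leaves). TraesCS6D02G127600 had 2.33, 1.05 and 1.36 CPM in TMY leaves, against 3.35, 6.48 and 6.29 CPM in TY leaves (-1.70 ± 0.38 SE, edgeR adjusted p = 0.0188), a call lost without TY replicate 2 or 3 or TMY replicate 3 (-1.58 to -1.54, adjusted p 0.0622 to 0.0691 by edgeR).

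Another group 7 gene went the other way. TraesCS7D02G409700 (chr7D:528133883-528142887, minus strand) had 15.9, 7.54 and 22.0 CPM in TMY leaves, 3.67, 5.94 and 4.90 CPM in TY leaves and 8.89, 11 and 7.36 CPM in CY leaves. It was higher in TMY than in TY (1.71 ± 0.38 SE, edgeR adjusted p = 0.0195), a call lost without TY replicate 1 or 3 or TMY replicate 1 or 3 (1.35 to 1.71, adjusted p 0.056 to 0.0794 by edgeR), and the B copy TraesCS7B02G316600, added here, changed by 1.54. TraesCS2D02G376600 had 6.4, 7.89 and 6.36 CPM in TMY leaves, against 3.27, 4.09 and 4.37 CPM in TY leaves (0.87 ± 0.19 SE, edgeR adjusted p = 0.0183), a call lost without TY replicate 1 or 2 or TMY replicate 1 (0.75 to 0.93, adjusted p 0.0504 to 0.0672 by edgeR). In roots it moved in the opposite direction, with 8.72, 10.2 and 8.78 CPM in TMG roots, against 12.3, 14.1 and 14.9 CPM in TG roots (-0.58 ± 0.12 SE, edgeR adjusted p = 0.0146), and the difference between tissues was -1.53 ± 0.22 SE, edgeR adjusted p = 0.00149.

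**Figure D4:**
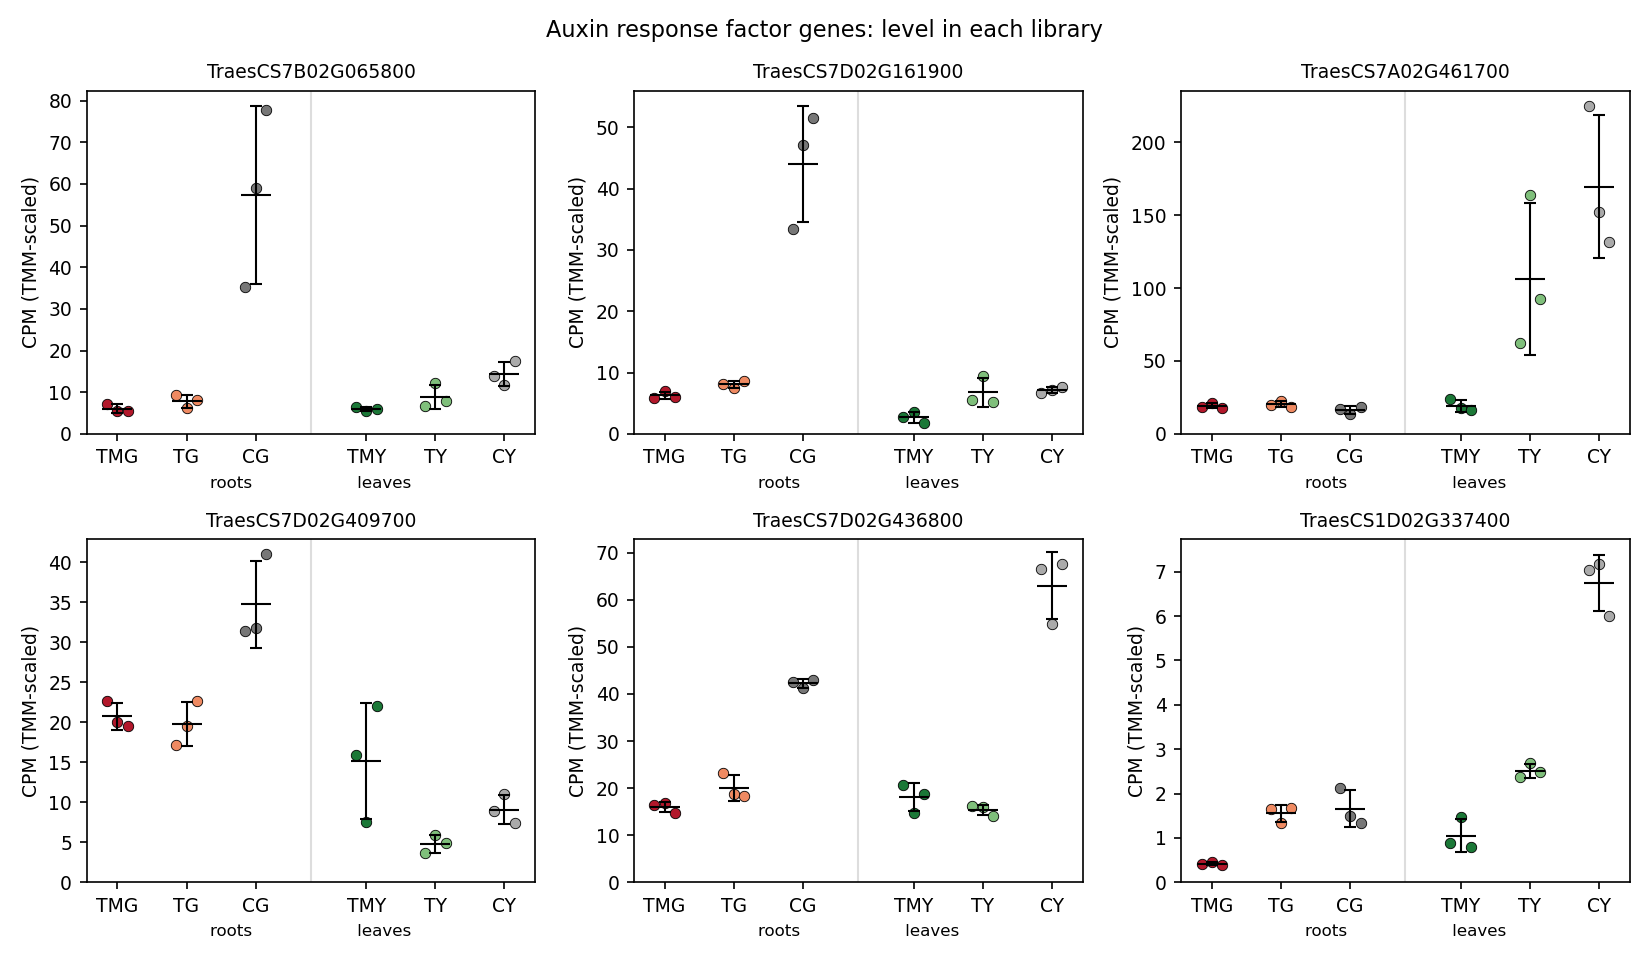
TMM-scaled CPM (y axis, each panel from 0) of 6 Auxin response factor genes in TMG, TG and CG roots and TMY, TY and CY leaves; points are libraries and bars the mean and SD of 3. TraesCS7B02G065800 was at 6.15 to 9.24 CPM in TG roots and 35.2 to 77.9 CPM in CG roots, and TraesCS7A02G461700 at 16.1 to 23.6 CPM in TMY leaves and 62.2 to 164 CPM in TY leaves.

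Between the untreated tissues, 23 of 59 tested response factors were higher and 19 lower in CG roots than in CY leaves, near the 36.1% of all genes higher and 29.3% lower. Scaled by library size alone, 32 were higher and 14 lower, beside 37274 of 71882 genes higher and 14657 lower. The NaCl effect differed between tissues in 15 of 61 response factors, 11 with the higher value in roots, beside 11.1% of all genes, 6.17% higher in roots and 4.91% lower, a count of 8 without CG replicate 2. Calls over all genes fell from 8790 to 5296 in that fit. The 3-MA effect differed in 10 of 61, with 5 in each direction, beside 10.5% of all genes, 3.4% higher and 7.12% lower, a count of 5 without TMG replicate 1 and of 5 without TMG replicate 2. Calls over all genes fell from 8404 to 4659 and 4624 there. The smallest adjusted p of the 3-MA contrast was that of TraesCS1B02G424700, which had 4.88, 5.72 and 4.57 CPM in TMG roots, against 4.24, 3.69 and 3.06 CPM in TG roots, and 2.94, 3.48 and 2.25 CPM in TMY leaves, against 8.74, 10.6 and 8.99 CPM in TY leaves. TMG lay above TG and TMY below TY in each library, with a difference of 2.03 ± 0.27 SE, edgeR adjusted p = 0.00113, though the root comparison alone was not called (0.46).

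Of the 37 auxin efflux carriers, 17 passed the filter in the root NaCl comparison and 7 in the leaf one. The tissues used different members. The most abundant in roots, TraesCS3B02G361500 (chr3B:572835319-572837868, minus strand) at 9.41 FPKM and TraesCS7D02G191600 at 7.06 FPKM, were nearly absent from leaves, at 0.0304 FPKM and 0.0220 FPKM. TraesCS3B02G361500 had 2073 counts over the CG libraries and 2 over the CY libraries, a ratio of 704 after scaling with an exact 95% counting interval of 195 to 5818. TraesCS7B02G398100 had 1178 counts in CG and none in CY, so it was at least 267-fold higher in CG roots, taking 3 counts over the CY group as the floor, and the figure for TraesCS7B02G095500 was at least 214-fold. A group 3 set ran the other way, and TraesCS3D02G421600 (chr3D:533871071-533875916, minus strand) had 0.366, 0.393 and 0.0748 CPM in CG roots, against 18.8, 12.5 and 17.4 CPM in CY leaves (-5.80 ± 0.38 SE, edgeR adjusted p = 4.93e-07). The group 6 genes were in both tissues, and TraesCS6D02G287800 (chr6D:397082345-397084736, plus strand) led in leaves with 8.08 FPKM, followed by TraesCS6B02G337300 with 5.10 FPKM. In all, 7 of 15 tested carriers were higher and 5 lower in CG than in CY, beside 36.1% and 29.3% of all genes.

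In roots under NaCl, 7 of 17 tested carriers were higher and 2 lower in TG than in CG, beside 18.5% of all genes higher and 17.1% lower, and the median log2 fold change was 0.64 against 0.03 over all genes. TraesCS6B02G337300 (chr6B:593711770-593714658, plus strand) had 30.9, 21.1 and 18.4 CPM in TG roots, against 9.85, 7.40 and 6.28 CPM in CG roots (1.61 ± 0.24 SE, edgeR adjusted p = 0.00162). TraesCS6D02G287800 had 22.7, 15.1 and 13.9 CPM in TG roots, against 8.69, 7.18 and 7.48 CPM in CG roots (1.17 ± 0.21 SE, edgeR adjusted p = 0.00336), and the A copy TraesCS6A02G308600, added here, had 26.3, 15.1 and 12.3 CPM in TG roots, against 14.8, 9.61 and 10.8 CPM in CG roots and was not called (0.64). The largest fold changes were in carriers that were close to absent from the control. TraesCS7A02G258800 had 0.958, 1.18 and 0.974 CPM in TG roots, against 0.0610, 0.0357 and 0.15 CPM in CG roots (3.65 ± 0.52 SE, edgeR adjusted p = 0.00129), and TraesCS4A02G188100 had 1.76, 1.67 and 1.31 CPM in TG roots, against 0.335, 0.0357 and 0.187 CPM in CG roots (3.05 ± 0.55 SE, edgeR adjusted p = 0.00353), neither with a count in any leaf library. The 2 carriers that fell were TraesCS7B02G398100, with 5.82, 7.96 and 7.74 CPM in TG roots, against 14.2, 13.9 and 12.0 CPM in CG roots (-0.87 ± 0.16 SE, edgeR adjusted p = 0.0042), and TraesCS3B02G361500, with 16.3, 12.9 and 12.5 CPM in TG roots, against 22.0, 27.3 and 22.0 CPM in CG roots (-0.74 ± 0.16 SE, edgeR adjusted p = 0.00803).

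With 3-MA in roots, 5 of 19 tested carriers were called and each was lower in TMG than in TG, beside 12% of all genes lower and 8.16% higher. DESeq2, run without the filter on low counts, called 6 of 31 carriers, each of them lower. It called 9881 of 95916 genes lower and 6584 higher. The count of 5 was 3 without TG replicate 2 and 3 without TMG replicate 1, where calls over all genes fell from 14879 to 9841 and 7430. The falls included 3 genes at corresponding places of group 7, of which TraesCS7B02G398100 (chr7B:664106649-664110679, plus strand) had 2.92, 2.29 and 2.14 CPM in TMG roots, beside the TG values above (-1.55 ± 0.19 SE, edgeR adjusted p = 0.00139). TraesCS7A02G492400 had 2.07, 1.31 and 1.72 CPM in TMG roots, against 3.86, 3.58 and 4.54 CPM in TG roots (-1.24 ± 0.22 SE, edgeR adjusted p = 0.00654), and TraesCS7D02G478800, added here, changed by -1.07. The other root set of group 7, which includes TraesCS7D02G191600, was not called between TMG and TG in any of its 3 genes (log2 fold changes -0.29 to -0.02). The group 6 genes were not called either, with log2 fold changes from -0.62 to -0.36.

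In leaves under NaCl, 5 of 7 tested carriers were called and each was lower in TY than in CY, beside 13.2% of all genes lower and 10.1% higher. Counting only genes with at least 1 CPM in 3 libraries, 4 of 6 were called, each lower, beside 7816 of 52601 genes lower and 6394 higher. All 3 genes of the group 3 set fell. TraesCS3D02G421600 had 3.13, 2.75 and 2.63 CPM in TY leaves, against 18.8, 12.5 and 17.4 CPM in CY leaves (-2.45 ± 0.20 SE, edgeR adjusted p = 0.00072), and TraesCS3B02G462900 had 1.22, 1.99 and 1.92 CPM in TY leaves, against 6.63, 5.91 and 9.38 CPM in CY leaves (-2.03 ± 0.28 SE, edgeR adjusted p = 0.00262). TraesCS3A02G426700 changed by -1.96. TraesCS6D02G287800, which rose in roots, had 6.83, 12.3 and 7 CPM in TY leaves, against 19.8, 26.3 and 33.9 CPM in CY leaves (-1.55 ± 0.28 SE, edgeR adjusted p = 0.0066). TraesCS5B02G283500, named after its values were seen because its fitted change was the largest of the family, had 39 counts in CY and none in TY, which makes TY at least 18.3-fold lower. It is among the 5 called carriers and passed the filter through CY alone, so it could only be found lower.

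With 3-MA in leaves, 2 of 6 tested carriers were called, both lower in TMY than in TY and both of the group 3 set, beside 9.94% of all genes lower and 8.44% higher. TraesCS3A02G426700 had 0.519, 1.63 and 0.714 CPM in TMY leaves, against 2.84, 2.82 and 4.01 CPM in TY leaves (-1.71 ± 0.42 SE, edgeR adjusted p = 0.0276), a call lost without TY replicate 1, 2 or 3 or TMY replicate 1 or 3 (-1.80 to -1.40, adjusted p 0.0607 to 0.0909 by edgeR). TraesCS3D02G421600 had 0.951, 1.60 and 0.536 CPM in TMY leaves, beside the TY values above (-1.41 ± 0.38 SE, edgeR adjusted p = 0.0368), and lost the call without the same libraries (-1.47 to -1.10, adjusted p 0.0792 to 0.126 by edgeR). Leaving out any of these 5 libraries ended both calls, and the count was 1 with library size alone as the scaling and 4 with all 6 groups in one fit. Over all genes 5174 to 7037 calls remained without those libraries, against 11923 in the main fit. Library size alone called 13152 of all genes and the fit of all 6 groups 17488.

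The NaCl effect on carriers differed between tissues in 6 of 20 tested genes, each with the higher value in roots, beside 11.1% of all genes. Of these 6, 3 were tested in the NaCl comparison of both tissues, 2 in roots alone and 1 in leaves alone, so for 3 of them the other tissue held few counts. TraesCS7D02G191600 had 1 count in TY and 9 in CY leaves, and TraesCS3A02G426700 had 16 counts in TG and 10 in CG roots. The one with the lowest adjusted p was TraesCS6D02G287800, higher in TG than in CG roots and lower in TY than in CY leaves without overlap in either tissue (difference 2.70 ± 0.38 SE, edgeR adjusted p = 0.00114), and TraesCS6B02G337300 gave 2.42 ± 0.41 SE, edgeR adjusted p = 0.00322, although its leaf groups alone were not called (-0.83). The 3-MA effect differed in 1 of 22, TraesCS3B02G361500, beside 10.5% of all genes. That gene had 11 counts over the TY libraries and none over the TMY libraries, so TMY was at least 4.12-fold lower, and the fitted difference depends on counts this low. Its roots were at 11.2, 14.2 and 11.6 CPM in TMG, against 16.3, 12.9 and 12.5 CPM in TG, which overlapped, and the call was lost without TY replicate 1 or 3 or TMY replicate 1 or 3 (4.41 to 4.94, adjusted p 0.0568 to 0.0648 by edgeR). Without TY replicate 2 or TMY replicate 2 the count of called carriers was 2. Calls over all genes were 6987 and 12962 in those fits, against 8404 in the main fit.

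**Figure D5:**
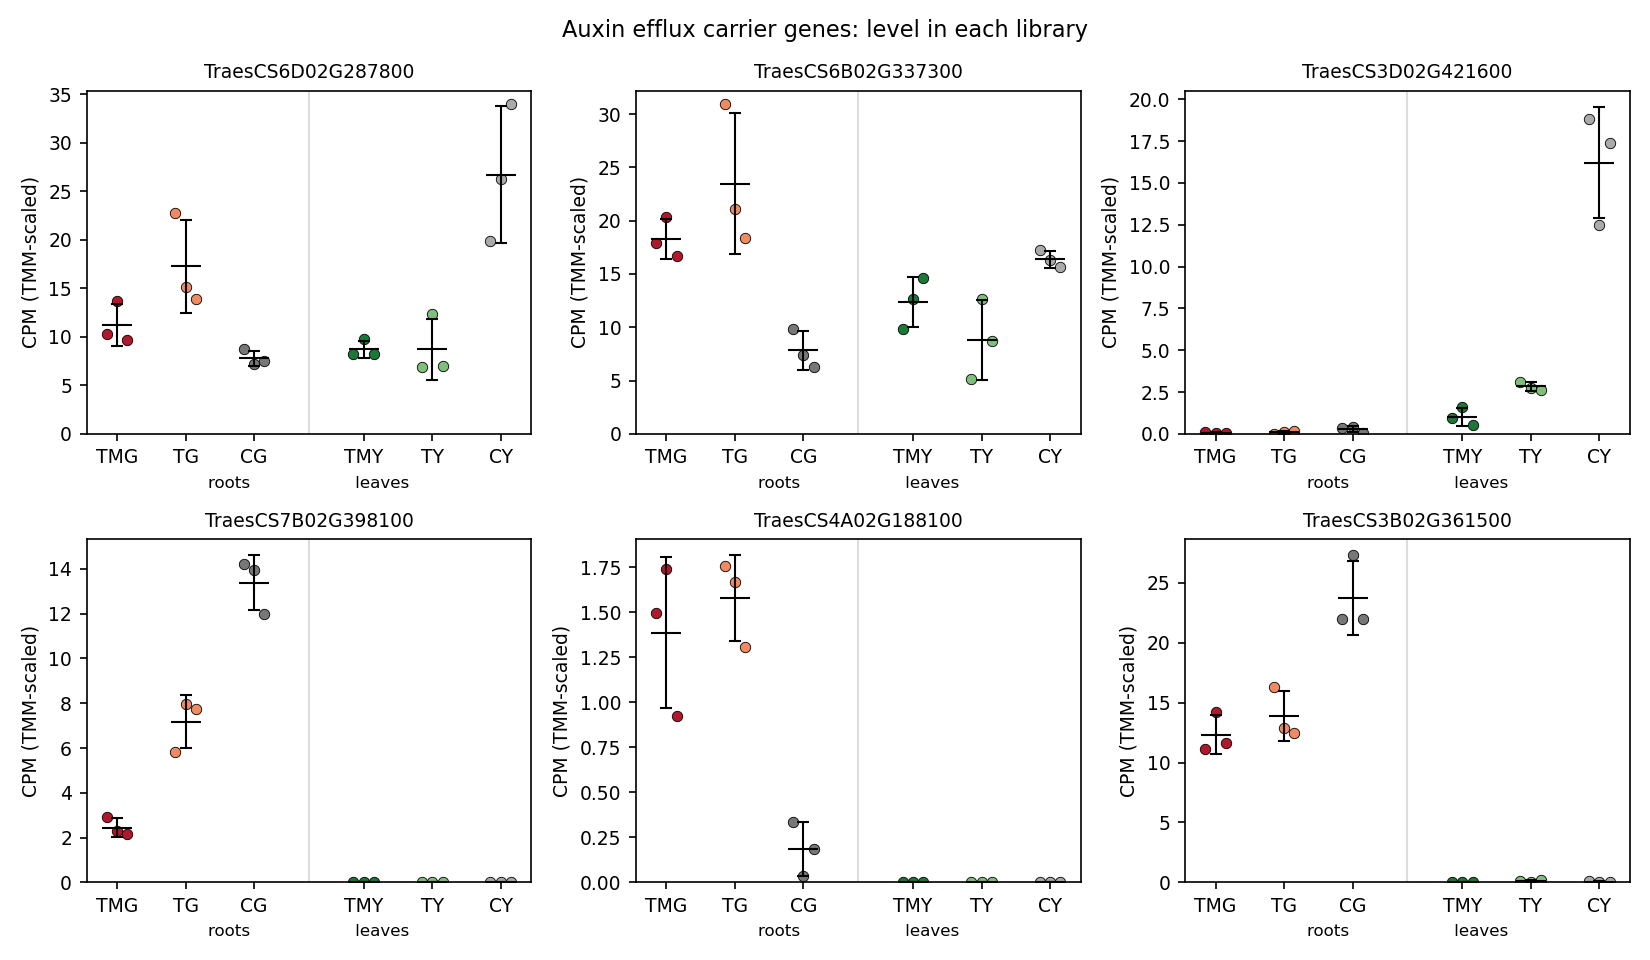
TMM-scaled CPM (y axis, each panel from 0) of 6 Auxin efflux carrier genes in TMG, TG and CG roots and TMY, TY and CY leaves; points are libraries and bars the mean and SD of 3. TraesCS6D02G287800 was at 13.9 to 22.7 CPM in TG and 7.18 to 8.69 CPM in CG roots, and at 6.83 to 12.3 CPM in TY and 19.8 to 33.9 CPM in CY leaves.

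Of 8 kinds of other auxin genes looked for by description, the table's wording matched only 2, with 3 genes for auxin-repressed protein and 3 for tryptophan aminotransferase, an enzyme of auxin synthesis. In the treatment comparisons the auxin-repressed protein genes were higher wherever they were called. Root values are given for TraesCS4D02G069100 alone, picked by no rule set beforehand, so they do not speak for the others. TraesCS4D02G069100 (chr4D:44542805-44546218, minus strand) had 342, 359 and 344 CPM in TMG roots, 143, 172 and 149 CPM in TG roots and 79.6, 115 and 99.4 CPM in CG roots, each group above the next without overlap (0.68 ± 0.17 SE, edgeR adjusted p = 0.0157 for NaCl and 1.17 ± 0.11 SE, edgeR adjusted p = 0.000404 for 3-MA). In leaves all 3 genes were higher in TY than in CY, by 1.82 to 1.95, beside 10.1% of all genes tested, and none was called between TMY and TY. Of the 3 tryptophan aminotransferase genes only TraesCS3D02G246700 is described, picked by no rule set beforehand, so it does not speak for the others. This gene had 16.5, 22.3 and 16.4 CPM in TMY leaves, 33, 59.9 and 52.8 CPM in TY leaves and 75.7, 94.0 and 91.8 CPM in CY leaves, each group below the next without overlap (-0.78 ± 0.23 SE, edgeR adjusted p = 0.0384 for NaCl and -1.35 ± 0.24 SE, edgeR adjusted p = 0.0087 for 3-MA), and it was not called in either root comparison.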

How the data were processed

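RNA-seq was analysed for 18 libraries, 3 in each of 6 groups. Per the study's methods, 150 bp paired reads were aligned to the Chinese Spring reference, and the submitters' processing notes name HISAT2 2.0.5, Bowtie 0.12.2 and the mouse build mm8 without giving their roles. The authors deposited 1 table with raw counts per gene and FPKM per gene. The counting program and its treatment of strand and of reads matching several copies are not given in the sources used here. Coordinates are those of the table. The 75 columns of the authors' own comparisons (fold changes and p-values) were not used.

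The deposited counts were tested with edgeR 4.0.16 in R 4.3.3 (filterByExpr, TMM, quasi-likelihood test), each comparison with its own groups, and p-values were adjusted by Benjamini-Hochberg over all genes tested. The effects of NaCl and 3-MA were compared between tissues with an interaction term, as roots minus leaves. Each replicate was a pool of organs, and the sources differ on whether pots were sampled separately or at random, so p-values measure the spread between these pools. Levels of different genes were compared in the deposited FPKM. Bounds against groups without counts used 3 counts over the group as the floor, and intervals on counts cover counting error only. The script was tested on simulated data. Figures were drawn with matplotlib 3.10.9.

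In each family and treatment comparison the 2 called genes with the highest and the 2 with the lowest log2 fold change were named, among called genes with at least 1 CPM on average in a group and no overlap. The 2 members with the highest mean FPKM in each tissue and the member with the lowest adjusted p in each interaction were added, and other copies of a named gene are said to be added. The members and lists were chosen with earlier results of these data known. Alternatives were DESeq2 1.42.0, other scaling and filters, all 6 groups in one fit, a replicate block and leaving out each library.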

Additional observations from a re-analysis of the deposited data

Results flagged for a closer look

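The differences below are between the tissues in the response to 1 treatment, tested with edgeR's interaction term and given as log2 differences, roots minus leaves, all with an adjusted p of 0.05 or less over all genes. For 3-MA, Aux/IAA genes gave 4.85 in TraesCS5D02G069200, 3.61 in TraesCS5B02G058800, 1.87 in TraesCS5B02G058500, 1.96 in TraesCS3A02G276500 and 1.82 in TraesCS3D02G276600, each more negative in leaves, and -3.14 in TraesCS7A02G371500, which had 41 counts in TMY and 20 in TY leaves and was tested in roots alone. Among the response factors the values were 2.26 in TraesCS7A02G461700, 2.03 in TraesCS1B02G424700, 1.69 in TraesCS6D02G102300, -1.73 in TraesCS7D02G409700 and -1.53 in TraesCS2D02G376600. The efflux carrier TraesCS3B02G361500 gave 4.91, a fitted value that depends on the absence of counts in TMY leaves.

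For NaCl, the Aux/IAA genes gave 4.10 in TraesCS7D02G351400, 2.56 in TraesCS5B02G381800, 1.41 in TraesCS6B02G432800 and -3.25 in TraesCS7D02G318900. The response factors gave 2.61 in TraesCS6A02G222300, 1.27 in TraesCS1D02G337400, 0.90 in TraesCS7A02G446900 and 0.90 in TraesCS7D02G436800, against -1.38 in TraesCS7A02G160800, -2.23 in TraesCS7B02G065800 and -2.42 in TraesCS7D02G161900. The efflux carriers gave 3.54 in TraesCS7D02G191600, 2.70 in TraesCS6D02G287800, 2.42 in TraesCS6B02G337300 and 2.29 in TraesCS3A02G426700. TraesCS7D02G191600 had 1 count in TY and 9 in CY leaves, and TraesCS3A02G426700 had 16 counts in TG and 10 in CG roots, so both entered this contrast through the other tissue.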

How the results depend on the processing

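Of 46 results for named genes under 631 alternatives in all, 582 kept their call and direction, 49 lost the call and 0 reversed, and 35 results kept the call under every alternative run. All 46 were picked as called, and those of the treatment comparisons also for lack of overlap between the groups. This choice leaves little room for a reversal and favours kept calls. An alternative whose filter removed the gene is not among these. The stricter filter removed TraesCS4A02G204900 and TraesCS7D02G127800 in TG vs CG and TraesCS7D02G318900 in TY vs CY. Leaving out 1 library accounted for 39 of the losses. With all 6 groups in one fit the called genes were 24 Aux/IAA genes and 6 response factors in TMG vs TG, 27 response factors and 4 efflux carriers in TMY vs TY, and 9 efflux carriers in TY vs CY. Over all genes that fit called 10267 in TMG vs TG, 17488 in TMY vs TY and 19824 in TY vs CY. DESeq2 called 26 Aux/IAA genes for NaCl by tissue, and 16 response factors and 2 efflux carriers for 3-MA by tissue. Its calls over all genes were 12863 and 12817 in these contrasts. Library size alone as the scaling called 9 response factors in TY vs CY and 1 efflux carrier in TMY vs TY, and moved the median of all genes to 0.26 in TG vs CG, 0.37 in TY vs CY, 0.15 in TMY vs TY and 0.73 in CG vs CY. Deviations from the group means correlated at -0.20 to 0.15 between samples with the same replicate number. Such correlations cannot exclude a pairing, and treated roots were not set against treated leaves in this way. A replicate block called 8 response factors and 0 efflux carriers in TMY vs TY and 0 efflux carriers for 3-MA by tissue. Calls over all genes fell from 11923 to 6785 and from 8404 to 6736 there. The block ended 7 calls of named genes. Among them were the response factors TraesCS7D02G409700, TraesCS2D02G376600 and TraesCS6D02G127600 in TMY vs TY, TraesCS2A02G491000 in TMG vs TG, and both efflux carriers called in TMY vs TY.

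Leaving out 1 library gave 20 to 43 called Aux/IAA genes in TMG vs TG. Response factors ranged over 19 to 30 in TG vs CG, 5 to 16 in TMG vs TG, 11 to 18 in TY vs CY, 7 to 22 in TMY vs TY, 8 to 15 for NaCl by tissue and 5 to 15 for 3-MA by tissue. Efflux carriers ranged over 3 to 5 in TMG vs TG, 0 to 3 in TMY vs TY and 0 to 2 for 3-MA by tissue. Calls over all genes moved too, to between 7430 and 16839 in TMG vs TG and between 5174 and 17369 in TMY vs TY. They lay between 17124 and 27797 in TG vs CG and between 8045 and 13999 in TY vs CY. The ranges were 5296 to 8995 for NaCl by tissue and 4624 to 12962 for 3-MA by tissue. The causes were not tested.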
